A study of Mus musculus with 30 samples.

Results

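Of 37 mouse genes whose symbol starts with mt-, 13 had a row among the 36558 gene rows of the count table, and these 13 are the protein-coding transcripts of the mitochondrial genome. They were taken by symbol alone, after Ensembl identifiers were matched to symbols, with no threshold on a measured value. Earlier results of these data were known when they were chosen. The other 24, which are the 2 ribosomal RNAs and the 22 transfer RNAs, are not analysed here. The transcripts were followed in 29 RNA-seq libraries, as each library's share of counts and as each transcript's share among the 13.

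The male C57BL/6J mice of the study gave heart or white adipose tissue. They had received an adeno-associated virus of serotype 8 that carried GFP (AAV8-GFP) or F11 (AAV8-F11), the gene of coagulation factor XI. All groups, the GFP controls included, ate a high-fat diet and were given l-NAME, which blocks nitric oxide synthase, over 7 weeks. Tissues were taken at 15 weeks of age, so no library shows either tissue without diet, drug and vector. There were 6 GFP heart libraries, 7 F11 heart libraries, 8 GFP adipose libraries and 8 F11 adipose libraries. A seventh GFP heart library in the labels is not analysed here. Since the labels do not tie each library to a mouse of its own, the p-values speak only of the spread among these libraries, which may be technical.

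The mitochondrial genome is a small circle that is transcribed from both strands into long precursors. Transfer RNAs are cut out of the precursors, which frees most of the mRNAs, and most mRNAs then receive a short poly(A) tail. All 13 mRNAs code for subunits of the respiratory chain or the ATP synthase, which sit in the inner membrane beside many more subunits made from nuclear genes. Heart muscle is packed with mitochondria, while white fat holds few.

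In GRCm38 the 13 mRNAs lie on the mitochondrial chromosome between base 2751, where mt-Nd1 starts, and base 15288, where mt-Cytb ends. They are read from one strand, apart from mt-Nd6 (chrM:13552-14070), which is read from the other. The shortest, mt-Atp8 (chrM:7766-7969), codes for a small subunit of the ATP synthase and shares its last 43 bases with the start of mt-Atp6 (chrM:7927-8607), the subunit of the proton channel. It is printed because its length and its overlap decide how its reads could be counted, with the bases shared with mt-Atp6 in capitals.
mt-Atp8: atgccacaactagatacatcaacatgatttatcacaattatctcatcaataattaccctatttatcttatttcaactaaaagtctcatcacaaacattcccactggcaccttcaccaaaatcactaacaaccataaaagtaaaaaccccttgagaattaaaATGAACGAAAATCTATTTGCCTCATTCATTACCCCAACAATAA

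The pair mt-Nd4l and mt-Nd4 overlaps by 7 bases in the same way, mt-Atp6 and mt-Co3 share 1 base, and mt-Nd5 and mt-Nd6 face each other over 14 bases on opposite strands. The annotated mRNAs mt-Co3, mt-Nd4 and mt-Cytb end in a lone T after their last whole codon. In mitochondria such a stop codon is completed by the poly(A) tail, which is known for this genome in general and was not measured here. Their last 30 bases are printed to show this, with the lone base in capitals.
mt-Co3: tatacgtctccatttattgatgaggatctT
mt-Nd4: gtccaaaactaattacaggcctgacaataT
mt-Cytb: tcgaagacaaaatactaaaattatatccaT

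The nuclear genome holds copies of mitochondrial DNA, and some are annotated as genes with a row of their own. Aligning the annotated transcripts found 11 nuclear pseudogenes that match 9 of the 13 mRNAs over at least 100 bases at 95% identity or more, while mt-Nd1, mt-Atp8, mt-Nd6 and mt-Cytb had none. Of the 11, 7 lie side by side on chr1:24611535-24616197 and match at over 99%. Gm28661 (chr1:24614885-24615565, minus strand) equals mt-Co2, a core subunit of cytochrome c oxidase, over 681 bases without a mismatch, so a read inside that stretch fits both genes. Gm28438 (chr1:24612775-24613119, minus strand) differs from mt-Nd3, a complex I subunit, by the single substitution T3C, counted from the first base of mt-Nd3. The first 60 bases of both pairs are printed to show how little tells a member from its copy, with the mismatch in capitals.
mt-Nd3: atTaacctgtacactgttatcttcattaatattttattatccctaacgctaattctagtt
Gm28438: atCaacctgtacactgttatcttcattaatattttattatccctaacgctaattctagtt
mt-Co2: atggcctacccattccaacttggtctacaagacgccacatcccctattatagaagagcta
Gm28661: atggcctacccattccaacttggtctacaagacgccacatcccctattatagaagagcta

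Heart libraries held 25751607 to 33022539 estimated counts, and adipose libraries held 15949550 to 26329117. All 6 cardiomyocyte markers were found in the hearts, with a summed level of 37432 to 46795 CPM (each library's counts scaled to a common total), and all 6 adipocyte markers in the adipose libraries, at 13123 to 22620 CPM. The count of F11 itself was 0 to 11 in every heart library, 0 to 85 in GFP adipose and 10 to 308 in F11 adipose libraries. Beyond that, 6 adipose libraries held over 1000 CPM of cardiomyocyte, liver or epididymis markers and stand apart for that reason. The GFP adipose library L140 had 7075 CPM of cardiomyocyte markers, which is 18.1% of the GFP heart median, against 26.0 to 157 CPM in the other adipose libraries. L136, L137, L145 and L146 had 1281 to 4257 CPM of liver markers and L142 had 5570 CPM of epididymis markers. Vector differences, the summed share and the median tissue difference of the members are therefore also given without these 6. Tissue differences of single members are given with all adipose libraries.

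Counts of 5 members were divided between the member and its nuclear copies, and the division differed between tissues. The copies of mt-Co2 received 93.3% ± 0.475 (SD, n = 6) of the summed count of member and copies in GFP hearts and 93.5% ± 0.587 (n = 7) in F11 hearts. In adipose tissue they received 79.0% ± 2.09 (n = 8) under GFP and 79.3% ± 2.29 (n = 8) under F11, and the ranges of hearts and adipose libraries did not overlap. The row of mt-Co2 as deposited thus held the smaller share of the counts that fit it in all 29 libraries.

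For mt-Nd3 the order of the tissues was the opposite, with copy shares of 68.3% ± 1.24 and 70.9% ± 3.36 in GFP and F11 hearts and 88.7% ± 1.97 and 87.7% ± 4.39 in the adipose groups. For mt-Co3, another core subunit of cytochrome c oxidase, the 4 groups had means of 50.3% to 55.2% and overlapped. For mt-Co1, the catalytic subunit of that enzyme, the copies held 5.31% ± 0.280 and 5.69% ± 1.59 in the hearts, where F11 library L40 alone reached 9.25%, and 14.2% ± 1.19 and 13.9% ± 1.04 in adipose tissue. The copy of mt-Atp6, Gm10925, was listed at a count of nearly 0 in every heart library but held 33.5% ± 14.9 in GFP adipose libraries. That group ran from 29.3% to 49.3% in 7 libraries and stood at 0.0669% in L140. In F11 adipose libraries the share of Gm10925 was 38.3% ± 8.98, from 25.5% to 55.4%. The copies of the other 4 members with a copy (mt-Nd2, mt-Nd4, mt-Nd4l and mt-Nd5) held at most 0.0274% of the summed counts in any library. Because kallisto divides reads that fit several transcripts by an estimate, results are also given with the copies' counts added to their member.

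**Figure D1:**
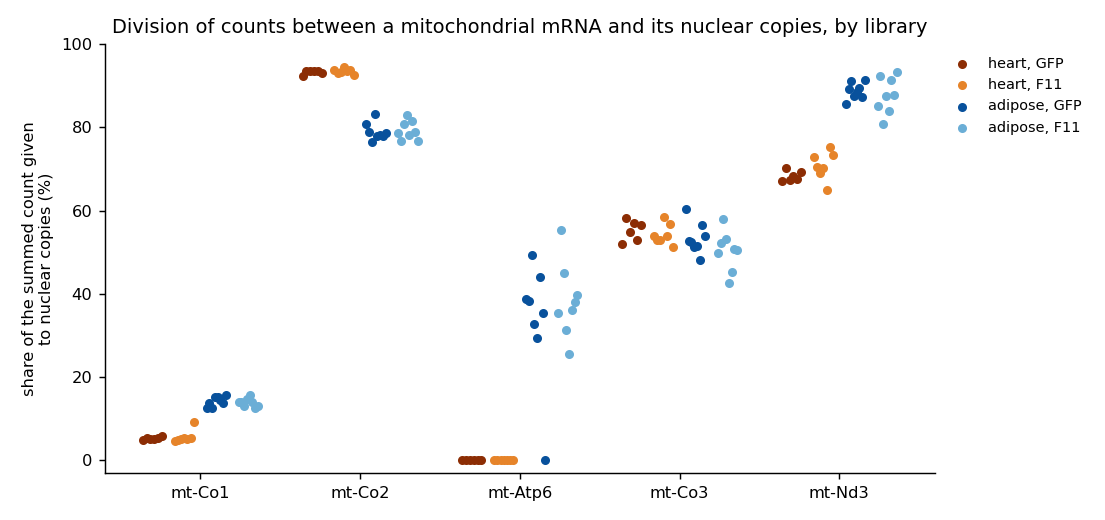
Share of the summed count of a mitochondrial mRNA and its near-identical nuclear copies that was given to the copies (y axis, percent), for the 5 members where it is above 1% in any library; each point is 1 library, coloured by tissue and vector. For mt-Co2, mt-Nd3 and mt-Co1 the heart and adipose points form separate bands, and for mt-Atp6 all 13 heart libraries and the GFP adipose library L140 lie near 0.

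The row of mt-Nd3 took only certain values in the adipose libraries, which it did not in the hearts. Its estimated count in all 16 adipose libraries was a whole multiple, within 0.001, of 149/3, which is 49.7 counts. The multiples ran from 17 to 32 under GFP and from 9 to 51 under F11. In none of the 13 heart libraries was the count such a multiple. When every read fits mt-Nd3 and Gm28438 alike or mt-Nd3 alone, the method's estimate for mt-Nd3 is the number of reads that fit it alone, times its counted length, divided by the difference of the counted lengths of both. The annotated lengths are 348 and 345 bases, and the step of 149/3 follows if 199 bases are taken off each, which leaves 149 bases of mt-Nd3 and 3 fewer of Gm28438. Of 298 whole fragment lengths from 50 to 347 bases that were tried, 200 alone gave whole multiples in the adipose libraries and none did in the hearts. By the same arithmetic, the deposited mt-Nd3 rows in adipose tissue rest on 9 to 51 reads per library.

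Nuclear genes gave a second view of the counted length. Of 1003 nuclear genes whose longest transcript is at most 199 bases, 277 (27.6%) had a count in any heart library and 8 (0.798%) in any adipose library. From 200 to 250 bases the shares were 32.2% and 20.8% of 645 genes, and above 250 and up to 500 bases they were 41.9% and 47.3% of 5138 genes. Short transcripts were thus almost without counts in the adipose libraries alone. Programs that count single reads over an assumed fragment length take that length off each transcript, and the labels name a single and a paired mode of sequencing without saying which libraries had which. Taking off 199 bases leaves 5 of 204 bases of mt-Atp8 (2.45%), 98 of 297 bases of mt-Nd4l, 42.8% of mt-Nd3 and 89.1% of mt-Nd5, the longest member. Tissue, the series of libraries and this way of counting fall together in this study and cannot be told apart, whereas both vectors were counted alike within a tissue. Tissue differences of members are given as deposited and with the adipose counts scaled to the length left, an alternative added after these values were seen. Heart counts were left on the whole length, and whether short transcripts lost counts in the hearts too was not tested.

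Mitochondrial mRNAs made up about 1 count in 3 in the heart. Their summed share was 33.6% ± 1.13 (SD, n = 6) of all counts in GFP hearts, with library values of 31.6, 33.2, 34.6, 33.6, 34.4 and 34.2%. In F11 hearts it was 33.2% ± 0.721 (n = 7), from 32.3% to 34.2%, inside the range of the GFP hearts. The hearts of both vectors thus overlapped throughout. In GFP adipose tissue the share ran from 4.05% to 6.09% in 7 libraries and reached 11.1% in L140, the library with cardiomyocyte markers. In F11 adipose tissue it ran from 3.89% to 6.71%, with a median of 4.84%. Every heart library lay above every adipose library.

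With the nuclear copies added, the share rose to 39.03% ± 1.41 in GFP hearts and 38.5% ± 0.947 in F11 hearts. It became 4.98% to 7.49% in 7 GFP adipose libraries, 13.2% in L140 and 6.28% ± 1.09 in F11 adipose tissue. Without the 6 libraries that held other organs' markers, the adipose means as deposited were 4.54% under GFP and 4.72% under F11 (5 libraries each). In bulk tissue, fewer cells of a type and less RNA per cell cannot be told apart in any of these shares. As sums over the members, they were given no test.

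**Figure D2:**
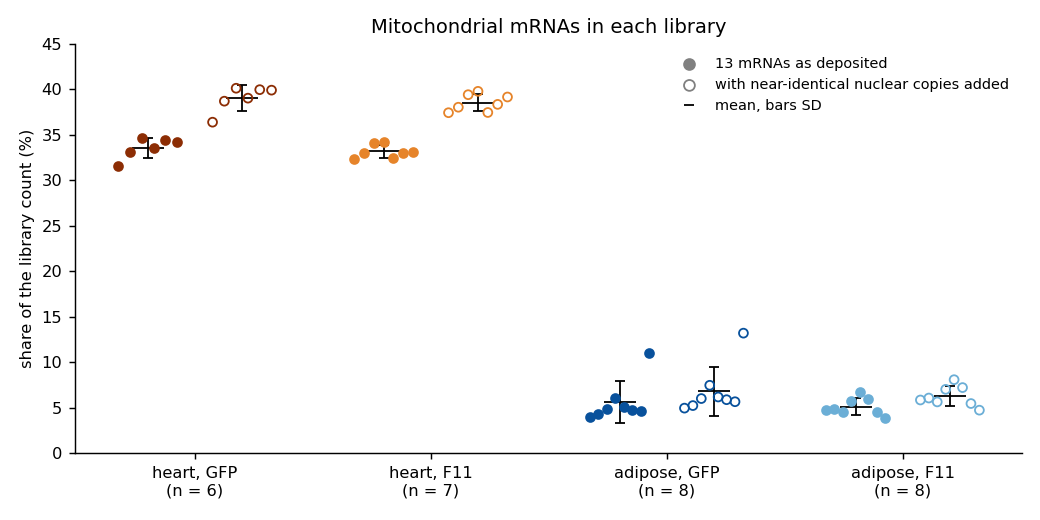
Share of each library's total count held by the 13 mitochondrial mRNAs (y axis, percent), by tissue and vector; filled points are the rows as deposited, open points have the near-identical nuclear copies added, bars are mean and SD. Heart libraries lie between 31.6% and 34.6% as deposited, and adipose libraries between 3.89% and 6.71% apart from the GFP adipose library L140 at 11.1%.

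All 13 mRNAs were higher in heart than in adipose tissue under both vectors. Each vector's 13 members passed edgeR's quasi-likelihood test (adjusted p between 8.16e-13 and 2.26e-06 under GFP, and between 1.76e-16 and 1.91e-10 under F11), where 37.7% of all 15578 genes tested under GFP and 38.9% of 15719 under F11 were called higher in heart, and 43.6% and 42.8% were called lower. In both vectors the heart and adipose libraries did not overlap for any of the 13, against 29.8% and 29.6% of all genes with every heart library higher. As deposited, log2 differences ran from 1.78 (mt-Co2) to 8.28 (mt-Atp8) with a median of 3.51 under GFP, and from 1.98 to 8.37 for the same members with a median of 3.79 under F11. The median over all genes was -0.09 and -0.06.

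That spread among members was narrower once copies and counted length were taken into account. With copies added, the range under GFP was 3.003 (mt-Atp6) to 8.28 (mt-Atp8). With the adipose counts scaled to the length left as well, it was 2.48 (mt-Nd3) to 3.61 (mt-Nd5) with a median of 3.01. Under F11 the same treatment gave 2.69 (mt-Atp6) to 3.72 (mt-Nd5) with a median of 3.23. Nuclear genes whose longest transcript is at most 250 bases had a median log2 difference of 7.81 under GFP (23 genes) and 7.80 under F11 (26 genes), while those of over 250 bases had medians between -0.32 and 0.17 by class of length. Only genes kept by the filter on low counts enter these medians. Of 1003 nuclear genes of at most 199 bases, 8 had a count in any adipose library, so genes of that length could pass almost only through the hearts. The median of the shortest class is therefore partly fixed by the filter and lends the members no support. Without the 6 libraries that held other organs' markers, the members' median with copies added was 3.82 under GFP and 3.75 under F11.

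**Figure D3:**
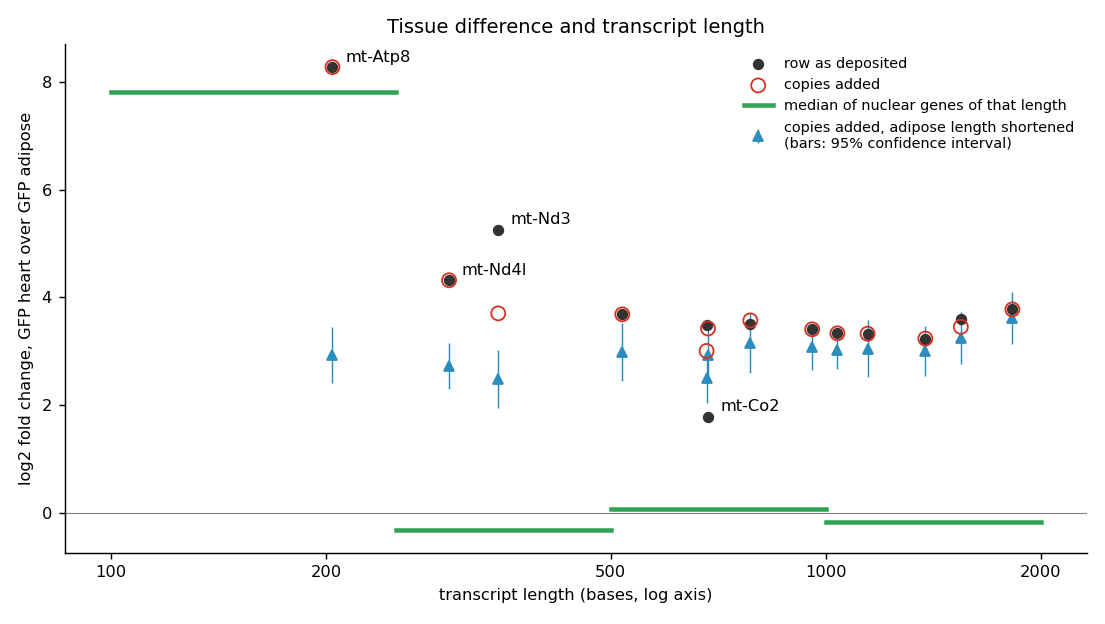
Log2 difference of GFP heart over GFP adipose tissue (y axis) against transcript length (x axis, bases, log scale) for the 13 members as deposited (black), with copies added (red rings), and with copies added and adipose counts scaled to the length left (blue triangles, 95% confidence intervals); green bars are medians of nuclear genes by length class. Short members rise to 8.28 as deposited, and all 13 triangles lie between 2.48 and 3.61. Green bars cover only genes that passed the filter on low counts.

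The complex IV members form the catalytic core of cytochrome c oxidase. As deposited, mt-Co1 held 10.1% to 11.2% (median 10.98%) of GFP heart libraries and 10.1% to 10.9% (median 10.6%) of F11 hearts. In adipose tissue it held 1.24% to 3.25% (median 1.49%) and 1.17% to 1.96% (median 1.495%). Heart and adipose libraries of mt-Co1 were far apart, and the highest adipose value was that of L140. Its log2 difference under GFP was 3.60 (SE 0.22), or 3.45 with copies and 3.25 (95% interval 2.77 to 3.74) with the length left as well. mt-Co2 held 0.181% to 0.211% of GFP hearts as deposited, but 2.65% to 3.02% with its copies. Its log2 difference moved from 1.78 (SE 0.22) to 3.42 (SE 0.23) with that addition, and to 2.92 (2.44 to 3.41) on the length left. mt-Co3 was at 3.57 with copies added and at 3.15 (2.59 to 3.71) on the length left, where only mt-Nd5 and mt-Co1 were higher under GFP.

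The complex III member, mt-Cytb, which codes for cytochrome b, has no near-identical copy. It held 3.47% to 3.84% (median 3.74%) of GFP hearts, 3.50% to 3.97% (median 3.71%) of F11 hearts, 0.459% to 1.41% (median 0.579%) of GFP adipose and 0.418% to 0.909% (median 0.614%) of F11 adipose libraries. The tissues did not overlap. The log2 difference was 3.32 (SE 0.25) under GFP and 3.53 (SE 0.16) under F11 as deposited, and 3.05 (2.52 to 3.58) and 3.25 (2.91 to 3.59) on the length left.

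The 7 complex I members code for the membrane arm that pumps protons when NADH is oxidised. Under GFP, mt-Nd1, mt-Nd2 and mt-Nd4 had similar log2 differences of 3.07, 3.02 and 3.01 with copies added and length scaled, and mt-Nd6, the one mRNA of the other strand, had 2.99 (2.45 to 3.52). Whether reads were counted by strand was not tested, so the mt-Nd6 row may hold reads of the opposite strand. mt-Nd5 was the highest of all 13 in both vectors, at 3.61 (3.13 to 4.09) under GFP and 3.72 (3.46 to 3.99) under F11. Heart lengths were left whole on this scale, and the part of member length in this order was not tested. mt-Nd3 was the lowest under GFP at 2.48 (1.94 to 3.02), although its deposited row gave 5.25 (SE 0.21). Its deposited row held 0.117% to 0.128% of GFP hearts, 0.0874% to 0.120% of F11 hearts, 0.00441% to 0.00996% of GFP adipose and 0.00261% to 0.00962% of F11 adipose libraries. mt-Nd4l moved from 4.32 (SE 0.20) to 2.72 (2.29 to 3.14). Under GFP the intervals of all 7 overlapped on this scale apart from mt-Nd5 against mt-Nd3. Under F11 the intervals were narrower, and more of them were apart. Those of mt-Nd1 (3.20 to 3.54), mt-Nd2 (3.18 to 3.55) and mt-Nd5 lay above those of mt-Nd3 (2.51 to 2.99) and mt-Nd4l (2.59 to 3.08). The intervals of mt-Nd4 (2.95 to 3.47) and mt-Nd6 (2.96 to 3.49) overlapped both of these.

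Of the complex V members, mt-Atp8 changed most with the way of counting. As deposited it held 0.378% to 0.428% (median 0.406%) of GFP hearts and 0.369% to 0.440% (median 0.394%) of F11 hearts, but 0.00194% to 0.00437% (median 0.00213%) of GFP adipose and 0.00169% to 0.00312% (median 0.00235%) of F11 adipose libraries. The log2 difference was 8.28 (SE 0.25) under GFP and 8.37 (SE 0.16) under F11, and on the length left it was 2.93 (2.40 to 3.45) and 3.02 (2.68 to 3.37). Since only 5 bases are left, this value moves much with the exact length used. mt-Atp6, which held 2.69% to 2.998% of GFP hearts, was among the 2 lowest with copies added and length scaled, at 2.5045 (2.04 to 2.97) under GFP and 2.69 (2.43 to 2.96) under F11.

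The order of the 13 mRNAs was compared per length, with copies added, over the whole length in heart and over the length left in adipose tissue. mt-Co1 ranked first in all 4 groups, with 18.6% ± 0.209 of the length-scaled mitochondrial count in GFP hearts, 18.3% ± 0.377 in F11 hearts, 15.4% ± 0.406 in GFP adipose and 15.3% ± 0.507 in F11 adipose tissue. In the hearts mt-Co3 (10.9% ± 0.252 under GFP), mt-Co2 (10.5% ± 0.171) and mt-Atp6 (10.5% ± 0.153) followed, with overlapping ranges. Next came mt-Cytb (8.05% ± 0.109), mt-Nd4 (7.25% ± 0.0932) and mt-Nd1 (6.67% ± 0.0845), whose ranges were separate. mt-Nd2 (5.52% ± 0.0625), mt-Nd4l (5.003% ± 0.0412), mt-Atp8 (4.96% ± 0.0948), mt-Nd5 (4.7955% ± 0.170) and mt-Nd6 (4.49% ± 0.184) lay near each other, and mt-Nd3 was last with 2.74% ± 0.0944. Neighbours from mt-Nd4l to mt-Nd6 in that order overlapped.

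Shares of 5 members did not overlap between heart and adipose libraries on this scale. It leaves heart lengths whole, and the part of member length in these differences was not tested. mt-Co1 and mt-Nd5 were higher in heart, the latter at 4.15% to 5.15% against 2.94% to 3.57%. mt-Atp6 was higher in adipose tissue, at 14.2% to 15.6% against 10.3% to 10.7%. mt-Nd4l (5.49% to 6.71% against 4.57% to 5.13%) and mt-Nd3 (3.20% to 4.21% against 2.42% to 2.89%) were higher there too. The other 8 members overlapped, among them mt-Atp8, which made up 5.24% ± 0.427 of GFP adipose and 5.57% ± 0.296 of F11 adipose tissue. Counted over its whole length, mt-Atp8 made up only 0.184% and 0.196% there. Shares add up to 100% in each library, so they do not move independently, and they were given no test.

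**Figure D4:**
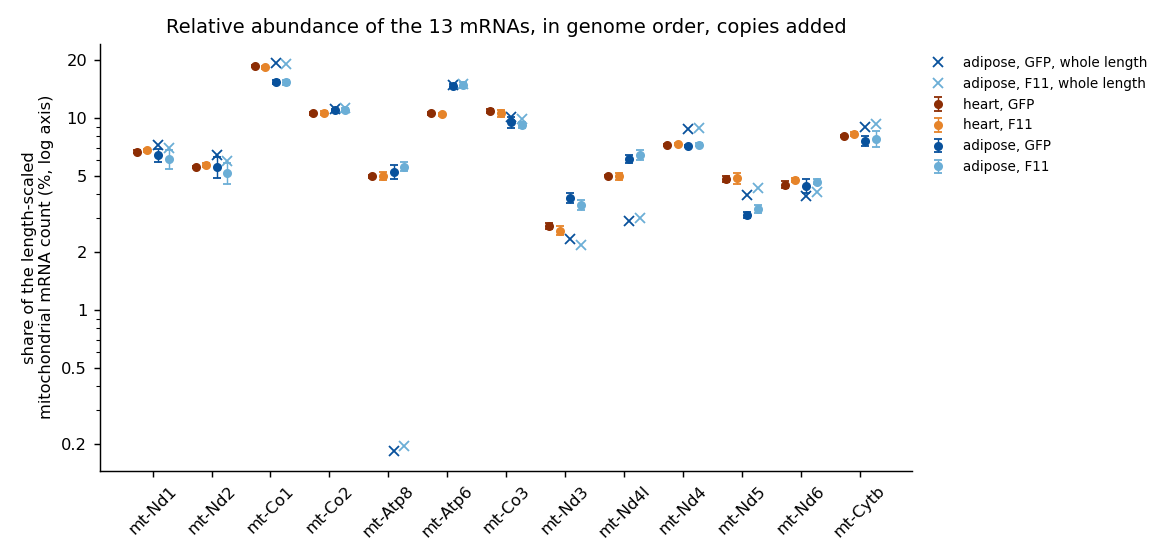
Share of the length-scaled mitochondrial mRNA count held by each of the 13 mRNAs in genome order, copies added (y axis, percent, log scale); circles with SD bars use the whole length in heart and the length left in adipose tissue, and crosses use the whole length in adipose tissue. mt-Atp8 in adipose tissue moves from 0.184% and 0.196% (crosses) to between 5.24% and 5.57% (circles), next to the heart values of 4.96% and 4.98%.

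A ratio of 2 genes within a library does not depend on how libraries are scaled, and 4 such ratios were compared in 4 contrasts by exact two-sided permutation tests, adjusted over these 16. The ratio of mt-Atp8 to mt-Atp6, 2 reading frames of one mRNA, was 0.141 in GFP hearts and 0.143 in F11 hearts as deposited, but 0.00564 and 0.00641 in adipose tissue, 25.02-fold and 22.2-fold lower (exact permutation p = 0.000333 and 0.000155, the smallest these designs allow). On the length left and with copies added, the ratio per base was 0.471 in GFP hearts and 0.355 in GFP adipose tissue, a log2 difference of 0.41 in the same direction (exact permutation p = 0.000333). Under F11 it was 0.476 and 0.378, a log2 difference of 0.33. Without the copies the length-scaled difference turned to -0.21 (exact permutation p = 0.144) under GFP and -0.38 (p = 0.00264) under F11, so its direction depends on how the reads shared by mt-Atp6 and Gm10925 are divided.

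The ratio of mt-Nd4l to mt-Nd4, the other pair on one mRNA, was 0.149 in GFP hearts and 0.0711 in GFP adipose libraries as deposited, 2.09-fold lower (exact permutation p = 0.000333). On the length left it was higher in adipose tissue, 0.855 against 0.690 per base under GFP and 0.879 against 0.675 under F11 (log2 differences of heart minus adipose -0.31 and -0.38, exact permutation p = 0.000333 and 0.000311). The ratio of mt-Nd6 to mt-Nd5, annotated on opposite strands, did not pass as deposited. It was 0.266 against 0.279 under GFP (exact permutation p = 0.0606) and 0.280 against 0.272 under F11 (exact permutation p = 0.386). Per length left it was 0.936 in GFP hearts against 1.42 in GFP adipose tissue, and 0.983 against 1.38 under F11 (log2 differences -0.60 and -0.49). The ratio of mt-Co1 to mt-Nd1 was 4.26 in GFP hearts and 3.68 in GFP adipose tissue as deposited (exact permutation p = 0.00167, adjusted p = 0.00533), and with copies added it was 4.49 and 4.28 (p = 0.216). On the length left its log2 difference was 0.35 under GFP and 0.23 under F11 (exact permutation p = 0.000333 and 0.0028). With copies added too, it was 2.78 against 2.41 per base under GFP (log2 difference 0.21, exact permutation p = 0.00366). Under F11 that log2 difference was 0.10 (exact permutation p = 0.159). For none of the 4 ratios was a tissue difference of the same direction called in both vectors under all of these ways of counting. All length-scaled ratios left heart lengths whole, so their directions and p-values depend on that choice.

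In the heart no mitochondrial mRNA passed the test between vectors. By edgeR's quasi-likelihood test 0 of 13 members were called, where 128 of 14684 genes (0.872%) were, and DESeq2 and limma voom also called 0 of 13. One member, mt-Nd3, had an unadjusted p under 0.05, as did 1831 of all genes. Log2 differences of F11 over GFP ran from -0.20 to 0.09 with a median of 0.01 (7 of 13 above 0), and the median over all genes was -0.01. The libraries of both vectors overlapped for all 13, and the groups of 1.1% of all genes did not. The 95% intervals of the other 12 members lay between -0.17 and 0.20.

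mt-Nd3 had the largest difference, -0.20 (SE 0.06, 95% interval -0.33 to -0.07, edgeR adjusted p = 0.133). Its adjusted p ran from 0.0583 with DESeq2 to 1 with a fit over all 4 groups. Its deposited row held 0.117%, 0.119%, 0.122%, 0.118%, 0.128% and 0.120% of the GFP heart libraries and 0.0961%, 0.102%, 0.106%, 0.104%, 0.120%, 0.0874% and 0.107% of the F11 hearts. Of the 7 F11 values 6 lay below all GFP values, and L38, at 0.120%, lay inside their range. With the counts of Gm28438 added, the difference was -0.07 (-0.18 to 0.03, edgeR adjusted p = 0.579). mt-Nd6 had the largest positive difference, 0.09 (-0.02 to 0.20). The summed level of all 6 cardiomyocyte markers was 37432 to 42992 CPM in GFP hearts and 43475 to 46795 CPM in F11 hearts, with none at 0 and no overlap, and its part in these values was not tested.

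Between vectors in the heart, the ratio of mt-Co1 to mt-Nd1 was 4.11 under F11 and 4.26 under GFP, a log2 difference of -0.05 (exact permutation p = 0.0233, adjusted p = 0.0622). With copies added it was 4.35 against 4.49 (exact permutation p = 0.0140, adjusted p = 0.0448), which passes the threshold, although the ranges of 4.19 to 4.47 and 4.39 to 4.58 overlapped. The ratio of mt-Nd6 to mt-Nd5 was 0.280 under F11 and 0.266 under GFP (exact permutation p = 0.0350, adjusted p = 0.0799), and library L40 alone stood at 0.320. The 2 ratios of reading frames on one mRNA differed by 0.01 and -0.03 on the log2 scale (exact permutation p = 0.666 and 0.212).

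In adipose tissue 0 of 13 members were called between vectors, as were 0 of all 15229 genes (0%), by edgeR, and DESeq2 and limma voom called 0 of 13. No member had an unadjusted p under 0.05, and 638 of all genes did. All 13 differences were negative, from -0.04 (mt-Atp8) to -0.33 (mt-Atp6, 95% interval -1.01 to 0.35), with a median of -0.13. Without the GFP adipose library L140 the median was 0.09 and 11 of 13 were positive. Without all 6 libraries that held other organs' markers it was 0.10 with 10 of 13 positive and a range of -0.12 to 0.18. The direction in adipose tissue thus rests on L140, which carries cardiomyocyte markers at 7075 CPM and a mitochondrial share of 11.1%.

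Intervals in adipose tissue were wider than in the heart. The narrowest deposited one was that of mt-Nd2 (-0.24, -0.55 to 0.07), a complex I subunit, and mt-Cytb spanned -0.64 to 0.40. None of the 4 ratios passed between vectors there (exact permutation p from 0.242 to 0.347). Without the 6 libraries the ratio of mt-Nd4l to mt-Nd4 was higher under F11 by 0.06 on the log2 scale (exact permutation p = 0.0238, unadjusted).

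**Figure D5:**
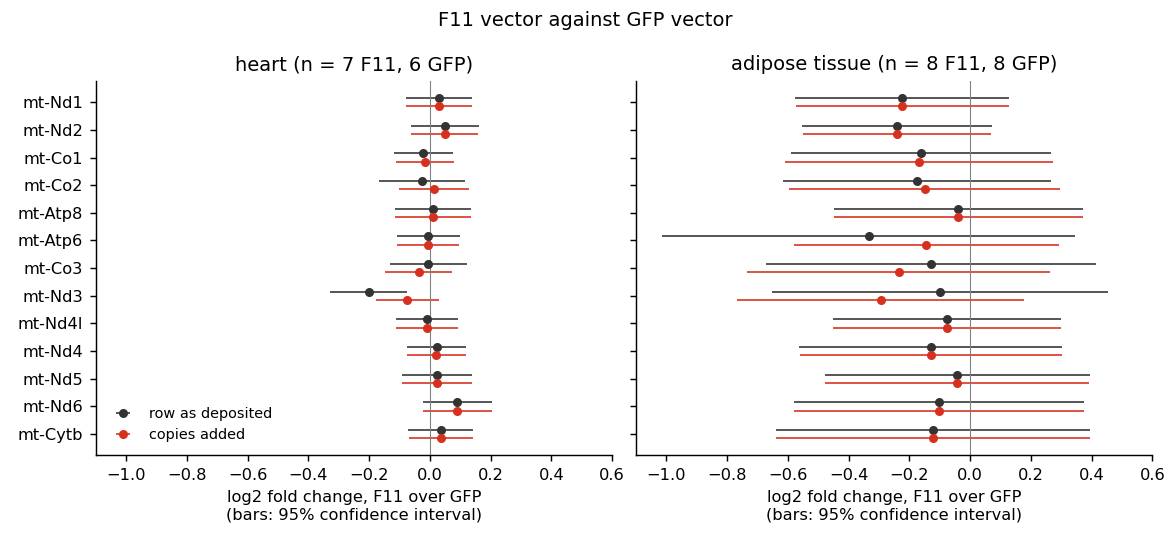
Log2 difference of F11 over GFP libraries (x axis) for each of the 13 mRNAs in genome order, in heart (left) and adipose tissue (right); points are edgeR estimates and bars 95% confidence intervals, as deposited (black) and with copies added (red). In heart all points but that of mt-Nd3 as deposited (-0.20) lie between -0.07 and 0.09, and in adipose tissue all intervals include 0.

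The effect of the vector in heart minus that in adipose tissue was called for 0 of 13 members by edgeR, where 4 of 16526 genes (0.0242%) were called, and DESeq2 and limma voom called 0 of 13 too. No member had an unadjusted p under 0.05, and the lowest was that of mt-Nd2 (0.102). The differences had a median of 0.16 and ran from -0.09 (mt-Nd3) to 0.33 (mt-Atp6). Without L140 the median was -0.10 and 2 of 13 were above 0.

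Nuclear genes for the same complexes were mostly higher in heart too. Of 90 nuclear subunits of the respiratory chain and ATP synthase, 85 were tested between tissues under each vector, and 81 rose in heart, with a median log2 difference of 2.56 under GFP and 2.70 under F11. Over all genes tested, 37.7% were called higher and 43.6% lower under GFP, and 38.9% and 42.8% under F11, with medians of -0.09 and -0.06. All 38 tested complex I subunits, 4 complex II and 9 complex III subunits rose under both vectors, as did 14 of 17 complex IV and 16 of 17 complex V subunits. The 4 that fell, named after their values were seen, were the same under both vectors. They were Cox6c2 (-7.15 and -7.63), whose reads may be shared with its paralog Cox6c, Cox6a1 (-0.76 and -0.55) and Cox8a (-0.43 and -0.44), which have isoforms of heart and skeletal muscle, and Atp5g2 (-0.46 and -0.52), 1 of several genes for the ring subunit c. Between vectors 0 of 84 were called in heart (median -0.02) and 0 of 85 in adipose tissue (median -0.12) by edgeR. In adipose tissue 78 of the 85 were negative, against 7649 of all 15229 genes, whose median was -0.0007. These subunits were not fitted without the 6 libraries that held other organs' markers, L140 among them, so their direction may rest on those libraries.

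The list of 49 nuclear genes for transcription, processing, decay and copying of the mitochondrial genome held no gene called between vectors in either tissue by edgeR. Between tissues 37 rose and 5 fell in heart under GFP, with a median of 0.90, and 38 rose and 5 fell under F11, with a median of 0.97. Of all genes, 37.7% rose and 43.6% fell under GFP, and 38.9% and 42.8% under F11. Ppargc1a, a coactivator that raises mitochondrial gene expression, was at 176 ± 25.8 CPM in GFP hearts (SD, n = 6). In adipose tissue it was at 4.89 ± 5.17 CPM under GFP and 2.72 ± 0.548 CPM under F11 (n = 8 each). Its log2 difference was 5.19 (SE 0.49) under GFP and 6.07 (SE 0.13) under F11. The GFP value was not fitted without L140, and edgeR called 0 of the 49 genes in the contrast of vector effects. Ppargc1b, a relative of Ppargc1a, rose by 3.96 and 3.87. Fastk, a mitochondrial RNA-binding protein, rose by 2.85 and 3.05, the nuclear receptor Esrra by 2.70 under GFP, and Lrpprc, which binds and stabilises mitochondrial mRNAs, by 2.97 under F11. These are the 4 called genes with the largest rise in each vector.

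Of that list 5 genes fell in heart under each vector. Rexo2, which degrades short RNA pieces in mitochondria, was at 33.3 ± 2.12 CPM in GFP hearts and 60.7 ± 7.00 CPM in GFP adipose tissue, with log2 differences of -0.87 (SE 0.08) and -0.66 (SE 0.05). Mterf1a, of the mitochondrial transcription termination factor family, differed by -0.58 and -0.57, and Rpusd3, a pseudouridine synthase, by -0.48 and -0.30. Mterf4 differed by -0.49 and -0.28. The remaining gene was Mtpap, the mitochondrial poly(A) polymerase, under GFP (-0.24) and Mterf1b under F11 (-0.64, SE 0.26). Mtpap under GFP and Mterf4 under F11 were named after their values were seen. Mterf1a and Mterf1b are near-identical paralogs whose reads may be shared. In the vector comparisons the lowest p-values of the list belonged to the helicase Supv3l1 in heart (0.19, edgeR adjusted p = 0.0614) and to Fastkd2 in adipose tissue (-0.26, adjusted p = 0.939). Supv3l1 works with the polynucleotide phosphorylase in the decay of mitochondrial RNA, and Fastkd2 is needed for the large mitochondrial ribosomal RNA.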

How the data were processed

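The RNA-seq data of both tissues were deposited as 1 gene table of estimated counts. Per the submitters' processing notes, the authors used kallisto 0.46 and GRCm38.p6. Of the values, 30.8% are not whole, and counts were rounded for count tests. Of 30 labelled libraries 29 were analysed here. Of the 36558 Ensembl identifiers, 35856 were matched to symbols.

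Genes kept by filterByExpr were tested with edgeR 4.0.16 (quasi-likelihood, TMM scaling) in R 4.3.3, with Benjamini-Hochberg adjustment over all genes tested and a threshold of 0.05. Each comparison was fitted on its own libraries, and the difference of vector effects on all 4 groups. DESeq2 1.42.0 and limma 3.58.1 (voom) were alternatives, and the fits were tested on simulated data. Log2 ratios of gene pairs were compared by exact permutation tests. Of 6 planned ratios, 2 with ribosomal RNAs were not run. Nuclear copies were found with blastn 2.17.0 among annotated GRCm38 transcripts, which also gave the printed sequences.

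Replicates were compared pairwise: 0 pairs held identical values, and chi-square per degree of freedom was at least 3.52, above sampling noise. The members and gene lists were chosen with earlier results of these data known. The text names all 13 mRNAs and, of the 49 nuclear regulators, per comparison the 4 called genes with the largest fold change in each direction with a mean of at least 1 CPM in a group, or, where none is called, those with the lowest p. Prorp was matched under its older symbol. Adding copies, leaving out 6 adipose libraries and scaling to the length left were alternatives added after seeing the data. Depth limits the precision of mt-Nd3 and mt-Atp8 in adipose tissue, and intervals cover the spread between libraries. For mt-Co2, mt-Atp6 and mt-Co3 a copy matches 681 of 684, 678 of 681 and 783 of 784 bases without a mismatch. How many reads fit these 3 members alone was not counted, so depth may limit their deposited rows and copy shares too.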

Additional observations from a re-analysis of the deposited data

Results flagged for a closer look

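Within groups of 6 to 8 libraries, 9 values of 76 examined stood farther from the other libraries than Dixon's 95% limit, where chance gives about 1 in 20. In GFP adipose library L140 the mitochondrial share of counts was 11.1%, against 4.05% to 6.09% in the other 7, and 13.2% with copies added, against 4.98% to 7.49%. The same library gave mt-Co3 8.86% of the mitochondrial count with copies added, against 7.40% to 8.03%, and a ratio of mt-Atp8 to mt-Atp6 of 0.00343, against 0.00538 to 0.00689. L140 held cardiomyocyte markers at 7075 CPM, and their part in these values was not tested.

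In F11 heart library L40, with copies added, mt-Co3 held 9.37% of the mitochondrial count, against 8.15% to 8.63% in the other 6. mt-Nd4l held 1.40%, against 1.501% to 1.56%, and mt-Nd5 held 7.83%, against 9.05% to 9.62%. The ratio of mt-Nd6 to mt-Nd5 there was 0.320, against 0.267 to 0.279. In F11 adipose library L145 the ratio of mt-Nd4l to mt-Nd4 was 0.0631, against 0.0719 to 0.0767 in the other 7.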

How the results depend on the processing

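No paired analysis was possible because the groups compared share no replicate numbers. All 13 members were called higher in heart than in adipose tissue under every alternative fit run, single libraries left out included, and 0 between vectors or in the contrast of vector effects. What changed was the direction of small vector differences and of length-dependent ratios. The causes were not tested beyond the alternatives themselves. Adding the nuclear copies moved mt-Co2 in heart F11 over GFP to 0.014 and mt-Nd3 in the heart minus adipose contrast to 0.23. It moved the mitochondrial share to 39.03% in GFP hearts, 38.5% in F11 hearts and 6.28% in F11 adipose tissue. mt-Co1 per kilobase became 18.6% and 18.3% in GFP and F11 hearts and 19.2% and 19.1% in GFP and F11 adipose tissue, and mt-Atp8 became 4.96%, 4.98%, 0.184% and 0.196% in the same order. The log2 ratio of mt-Co1 to mt-Nd1 between tissues became 0.069 under GFP and -0.038 under F11. Shortening each length by 49 bases gave mt-Co1 20.7% and 20.3% in the hearts, and mt-Atp8 7.46% and 7.45% in the hearts and 0.301% and 0.322% in adipose tissue.

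Without the 6 adipose libraries with markers of other organs, the adipose vector differences that turned were 0.071 for mt-Co1, 0.14 for mt-Atp8, 0.14 for mt-Atp6, 0.097 for mt-Co3, 0.17 for mt-Nd3, 0.12 for mt-Nd4l, 0.065 for mt-Nd4, 0.18 for mt-Nd5, 0.14 for mt-Nd6 and 0.091 for mt-Cytb. With copies added too, they were 0.072 for mt-Co1, 0.060 for mt-Co2, 0.14 for mt-Atp8, 0.039 for mt-Atp6, 0.055 for mt-Co3, 0.12 for mt-Nd4l, 0.065 for mt-Nd4, 0.18 for mt-Nd5, 0.14 for mt-Nd6 and 0.091 for mt-Cytb. The heart minus adipose contrast without those libraries turned to -0.076 for mt-Co1, -0.11 for mt-Atp8, -0.12 for mt-Atp6, -0.086 for mt-Co3, -0.12 for mt-Nd4l, -0.026 for mt-Nd4, -0.14 for mt-Nd5, -0.036 for mt-Nd6 and -0.038 for mt-Cytb. With copies added too, it was -0.072 for mt-Co1, -0.029 for mt-Co2, -0.11 for mt-Atp8, -0.028 for mt-Atp6, -0.074 for mt-Co3, 0.0020 for mt-Nd3, -0.12 for mt-Nd4l, -0.026 for mt-Nd4, -0.14 for mt-Nd5, -0.036 for mt-Nd6 and -0.038 for mt-Cytb. The ratio of mt-Nd4l to mt-Nd4 differed between vectors by 0.057 there (exact permutation p = 0.0238). With limma voom, mt-Atp8 and mt-Nd5 in adipose tissue were 0.028 and 0.0042, and the contrast for mt-Atp8 was -0.0089.

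Scaling adipose counts to the length left, with heart lengths kept whole, changed the heart minus adipose log2 ratios, given under GFP and then F11. They were -0.60 and -0.49 for mt-Nd6 to mt-Nd5, -0.21 and -0.38 for mt-Atp8 to mt-Atp6, and -0.31 and -0.38 for mt-Nd4l to mt-Nd4. For mt-Co1 to mt-Nd1 it was 0.23 under F11. With copies added too, mt-Nd6 to mt-Nd5 stayed at -0.60 and -0.49 and mt-Nd4l to mt-Nd4 at -0.31 and -0.38.

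Leaving out each library in turn gave these ranges of F11 over GFP in heart for the members that crossed 0: mt-Nd1 -0.0062 to 0.047, mt-Co2 -0.080 to 0.0032, mt-Atp8 -0.024 to 0.035, mt-Atp6 -0.035 to 0.016, mt-Co3 -0.052 to 0.030, mt-Nd4l -0.038 to 0.011, mt-Nd4 -0.0035 to 0.045 and mt-Nd5 -0.0027 to 0.053. In adipose tissue they were mt-Co1 -0.22 to 0.064, mt-Co2 -0.27 to 0.070, mt-Atp8 -0.098 to 0.15, mt-Atp6 -0.47 to 0.089, mt-Co3 -0.25 to 0.15, mt-Nd3 -0.25 to 0.067, mt-Nd4l -0.13 to 0.11, mt-Nd4 -0.20 to 0.093, mt-Nd5 -0.10 to 0.19, mt-Nd6 -0.17 to 0.17 and mt-Cytb -0.21 to 0.13. For the heart minus adipose contrast they were mt-Co1 -0.091 to 0.21, mt-Co2 -0.10 to 0.25, mt-Atp8 -0.14 to 0.12, mt-Atp6 -0.10 to 0.47, mt-Co3 -0.16 to 0.26, mt-Nd3 -0.27 to 0.058, mt-Nd4l -0.13 to 0.13, mt-Nd4 -0.077 to 0.23, mt-Nd5 -0.17 to 0.13, mt-Nd6 -0.083 to 0.27 and mt-Cytb -0.10 to 0.25.

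The same step moved some log2 ratios across 0 or across an unadjusted p of 0.05. Between vectors in heart, mt-Nd6 to mt-Nd5 ran from 0.037 to 0.081, mt-Atp8 to mt-Atp6 from -0.00099 to 0.035, mt-Nd4l to mt-Nd4 from -0.041 to -0.012 and mt-Co1 to mt-Nd1 from -0.059 to -0.042 (exact permutation p = 0.0530 without GFP heart library L1). Between vectors in adipose tissue mt-Nd4l to mt-Nd4 ran from 0.022 to 0.071. Between tissues mt-Nd6 to mt-Nd5 ran from -0.085 to -0.050 under GFP and mt-Co1 to mt-Nd1 from 0.058 to 0.13 under F11.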

Other observations

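Gm20594, a gene on chr6:79817916-79818364, matches the mitochondrial large ribosomal RNA mt-Rnr2 at 88.4% over 439 bases, under the limit set for a near-identical copy. It held 0.110% ± 0.0153 (SD, n = 6) of GFP heart libraries and 0.0988% ± 0.0101 (n = 7) of F11 hearts, but 0.00507% to 0.0146% of the adipose libraries. The tissue difference was 4.85 under GFP and 5.07 under F11 on the log2 scale. The source of its reads was not tested.

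Among the 16 adipose libraries, the shares of 3 mRNAs in the mitochondrial count (copies added) went with the summed level of 6 macrophage markers, which ran from 537 to 6631 CPM. The relation was looked for after the data were seen, over all 13 members, whose shares add up to 100%. For mt-Cytb Pearson's r with the log2 marker sum was -0.881 and Spearman's rho -0.915 (permutation p = 1e-05 for r, the smallest that 100000 permutations give, adjusted p = 0.00013). For mt-Nd1 r was 0.773 and rho 0.874 (permutation p = 0.00056, adjusted p = 0.00243), and for mt-Nd2 r was 0.813 and rho 0.865 (permutation p = 0.00018, adjusted p = 0.00117). Without the 2 libraries farthest from the median marker level, L145 and L140, r was -0.941, 0.784 and 0.780. Within GFP libraries it was -0.851, 0.783 and 0.806, and within F11 libraries -0.936, 0.790 and 0.848. Without the 6 libraries that held markers of other organs (10 libraries left) it was -0.954, 0.892 and 0.753. The other 10 members had adjusted permutation p-values of 0.058 or more. The part of macrophages in these shares was not tested.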
